A study of Mus musculus with 6 samples.

Results

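Transcripts of enteric neurons, enteric glia and interstitial cells of Cajal were examined in colorectal tissue of mice with colitis. The 37 genes were chosen by name as markers of these cells, and all 37 were found among the 18268 genes of the deposited table. Of these, 26 reached an FPKM (fragments per kilobase of transcript and per unit of mapped reads, a level scaled for length and depth) of at least 1 in at least 3 of 6 mice and were tested, among 12072 genes tested in all. The other 11 genes lay below this filter and are given by their values. The tissue came from C57BL/6 mice, described by the study as adult males, which had all received dextran sulfate sodium (DSS) for 7 days to induce colitis. Over 6 days, 3 mice also received berberine (BBR), a plant alkaloid, and 3 mice received sulfasalazine (SASP), an aminosalicylate prodrug, each by gavage, with the dose of BBR lower than that of SASP. Healthy mice and colitis mice without a drug were not analysed here, so all differences are between the drugs.

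The enteric nervous system lies within the gut wall, in ganglia between the muscle layers and beneath the mucosa. Its neurons and glia arise from neural crest cells that need the receptor RET, its ligand GDNF and transcription factors such as SOX10 and HAND2. Excitatory motor neurons release acetylcholine and tachykinins, and inhibitory motor neurons release nitric oxide and vasoactive intestinal peptide. Interstitial cells of Cajal, which depend on the receptor KIT, pace the smooth muscle through the chloride channel ANO1. Most enteric ganglia and Cajal cells lie within the muscle wall of the bowel. In bulk tissue, fewer cells of a type and less RNA per cell cannot be told apart.

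Samples were comparable in depth. The estimated number of mapped reads was 16400000 to 18200000 per mouse, a rough value that rests on 31 to 56 short genes, each with a signal in a single mouse that was taken as 1 read. Between 17 and 32 of the 37 genes reached 1 FPKM in any mouse. Colon epithelial markers were abundant in every mouse, with a summed level of 8606 to 11447 FPKM for 10 genes, among them Epcam at 833 to 1101 FPKM. Of the 10, 8 were higher and 2 lower on average in BBR mice, where 60.8% of all genes tested were higher. Cdx2 was called higher (1 of 10, against 3.82% of all genes) and Vil1 lower (1 of 10, against 5.04%). BBR mouse 3 stood apart from the other BBR mice, with a limma array weight over all genes of 0.129 against 5.32 and 0.589, and the results below are therefore also given without it where this changes a call.

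Sequences upstream of 3 genes are shown as examples. Kit was the tested gene whose groups did not overlap, Vip had the largest log2 fold change over all 6 mice and Hand2 encodes a transcription factor of enteric neurons. The 250 bases before each start were taken from RefSeq (GRCm38.p6, all on the plus strand), whereas the processing notes of the submitters name the older build mm9 for the reads. For Kit, the window of the first listed start is given. The regions were chr5:75574737-75574986 for Kit, chr10:5638968-5639217 for Vip and chr8:57320733-57320982 for Hand2. Capitals mark TGACG, the core of the cyclic AMP response element, on either strand.
Kit: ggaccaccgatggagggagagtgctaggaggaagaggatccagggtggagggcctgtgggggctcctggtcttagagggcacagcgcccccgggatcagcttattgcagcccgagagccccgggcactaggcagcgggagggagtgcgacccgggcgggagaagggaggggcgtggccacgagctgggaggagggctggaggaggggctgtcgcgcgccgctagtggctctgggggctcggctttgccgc
Vip: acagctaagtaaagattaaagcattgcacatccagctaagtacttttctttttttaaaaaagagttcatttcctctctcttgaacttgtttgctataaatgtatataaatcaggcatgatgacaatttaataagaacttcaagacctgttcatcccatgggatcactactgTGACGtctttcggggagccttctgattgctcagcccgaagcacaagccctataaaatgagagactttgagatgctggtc
Hand2: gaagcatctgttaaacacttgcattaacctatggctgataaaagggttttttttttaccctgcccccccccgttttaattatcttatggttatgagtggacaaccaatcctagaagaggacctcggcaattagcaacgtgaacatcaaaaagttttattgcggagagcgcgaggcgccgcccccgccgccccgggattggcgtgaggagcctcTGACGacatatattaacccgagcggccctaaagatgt
The core began 79 bases before the start of Vip and 37 bases before the start of Hand2, and it was not in this window of Kit. Of the 37 genes, 25 had such a sequence in RefSeq, with 31 start sites in all. TGACG on either strand was in 14 of these 31 windows (45.2%), belonging to 12 genes, and in 17.8% of all 32851 windows. The whole palindrome TGACGTCA, which contains TGACG, was in 3 of the 31 windows (Cartpt, Scg2 and Th) and in 1.55% of all windows. CATCTG, an E-box of the kind that HAND2 can bind, was in 7 of the 31 windows (22.6%) and in 14.4% of all windows. The TATA-box letters TATAAA were in 4 of the 31 windows (12.9%) and in 12.4% of all windows. A match describes these letters only, Chat and Slc18a3 share a locus, several genes have more than 1 window, and the motifs were chosen after the values were seen.

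BBR and SASP were compared to find whether genes of the nerve and pacemaker cells differed between the drugs. The levels of 25 of the 26 tested genes were higher on average in BBR mice, as was the case for 60.8% of all genes tested. The median log2 fold change, on the log2(FPKM + 1) scale, was 0.69 for the 26 genes and 0.10 for all genes tested. However, 0 of the 26 genes passed an adjusted p-value of 0.05 in limma, where 8.86% of all genes were called, 3.82% higher and 5.04% lower in BBR mice. At an unadjusted p-value under 0.05, Kit and Gal passed, 2 of 26 genes and both higher in BBR mice, where 31.8% of all genes did and 18.4% were higher. The groups did not overlap in 1 of the 26 genes, Kit, against 37.9% of all genes. Without BBR mouse 3, Kit, Ano1 and Erbb3 were called higher (3 of 26, against 22.2% of all genes) and Tac1 lower (1 of 26, against 11.3%). Array weights let mice with noisy values count less. They were 5.32, 0.589 and 0.129 in BBR mice 1 to 3 and 0.686, 0.746 and 4.85 in SASP mice 1 to 3. BBR mouse 1 and SASP mouse 3 thus counted most in that fit. With these weights 4 genes were called higher (against 38.4% of all genes) and 2 lower (against 20.6%), and the median log2 fold change was -0.15.

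The spread between mice was wide. Within the BBR group, the highest level of a tested gene was 1.67 to 10.1 times the lowest, with a median of 3.85, against a median of 1.40 for all genes tested. Within the SASP group it was 1.05 to 5.26 times the lowest, with a median of 2.57, against 1.21 for all genes. The median standard error of the log2 fold change was 0.44 for the 26 genes and 0.16 for all genes. The same mice were high or low for most of the genes. BBR mouse 3 was the highest BBR mouse in 23 of the 26 genes, against 22.8% of all genes tested. BBR mouse 1 was the lowest BBR mouse in 22 of 26, against 21.7% of all genes. SASP mouse 1 was the lowest SASP mouse in 24 of 26, against 47.2% of all genes. In 22 of the 26 genes BBR mice 2 and 3 both lay above all SASP mice, against 26.6% of all genes. BBR mouse 1 lay below the SASP mean in 22 of the 26 tested genes and in 1 of the 11 genes below the filter. The filter used the levels in these same mice, so these counts cannot be set against each other. The share over all genes was not counted.

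**Figure D1:**
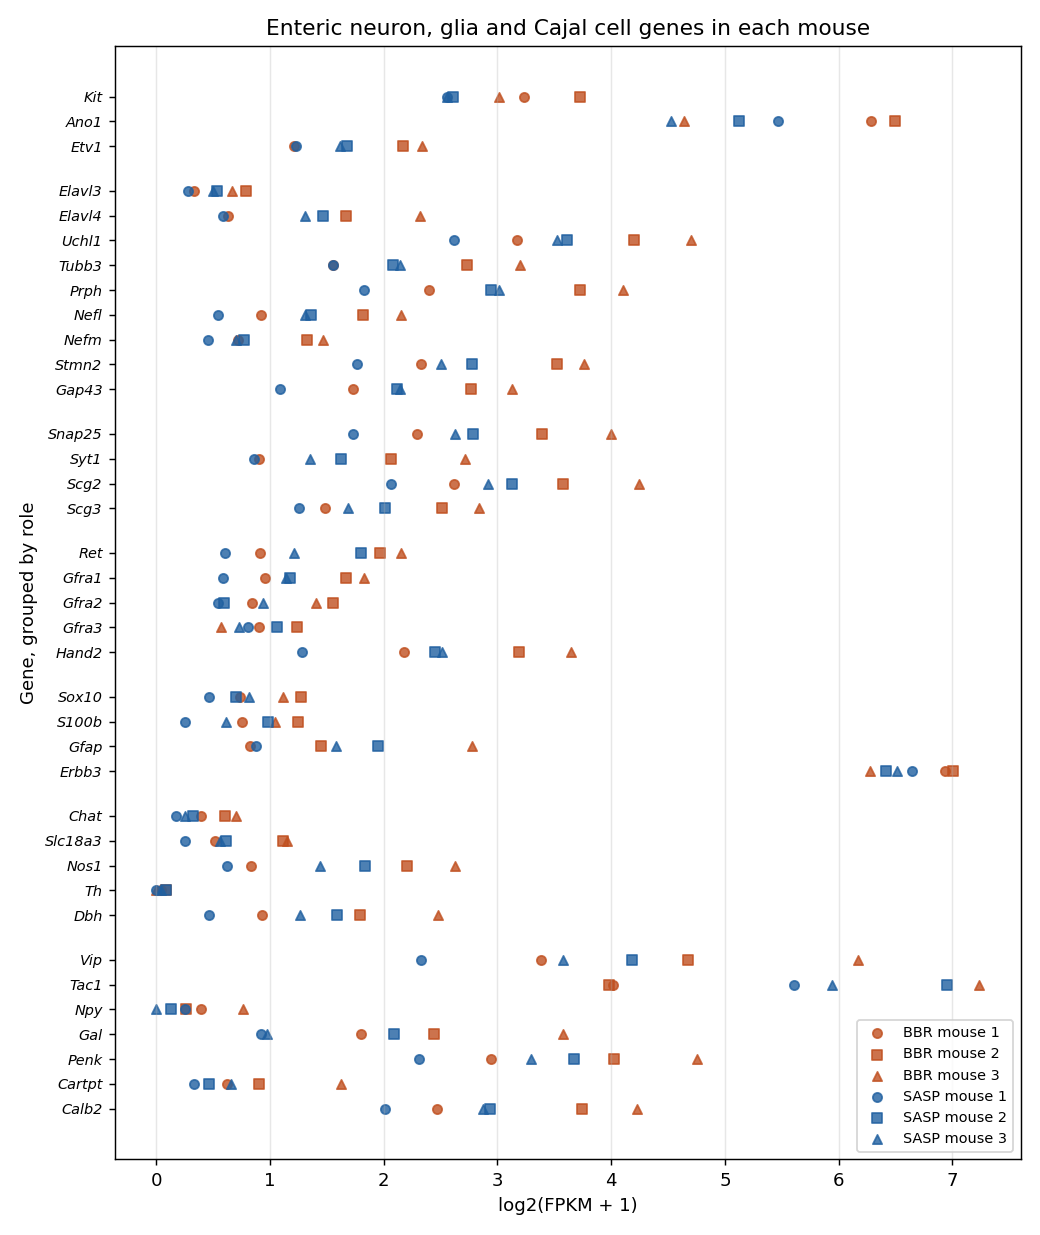
Level of each of the 37 genes in each mouse, as log2(FPKM + 1), with genes grouped by role, BBR mice in orange and SASP mice in blue. In most neuronal genes BBR mice 2 and 3 lay highest, SASP mouse 1 lay lowest and BBR mouse 1 fell among the SASP mice.

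Genes used by all neurons varied together. Uchl1 (Gene ID 22223), a ubiquitin hydrolase abundant in neurons, was at 8.03, 17.42 and 25.04 FPKM in BBR mice and at 5.14, 11.25 and 10.50 FPKM in SASP mice. BBR mouse 1 thus fell within the SASP range, while the other BBR mice lay above it. The log2 fold change was 0.77 (SE 0.43, 95% interval -0.24 to 1.79, limma adjusted p = 0.251). Stmn2 (20257), a regulator of microtubules in growing axons, was at 4.03, 10.47 and 12.58 FPKM in BBR mice and at 2.39, 5.85 and 4.66 FPKM in SASP mice. The order of the mice resembled that of Uchl1, and the log2 fold change was 0.86 (SE 0.42, adjusted p = 0.203). Prph (19132), the intermediate filament of peripheral neurons, was at 4.27, 12.19 and 16.24 FPKM under BBR and at 2.55, 6.68 and 7.06 FPKM under SASP. Again BBR mouse 1 lay inside the SASP range, and the log2 difference was 0.82 (SE 0.50, adjusted p = 0.291).

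The other pan-neuronal genes had similar profiles. Gap43 (14432), a growth cone protein, was at 2.32, 5.79 and 7.73 FPKM in BBR mice and at 1.12, 3.34 and 3.41 FPKM in SASP mice. Tubb3 (22152), the neuronal beta-tubulin, was at 1.93, 5.64 and 8.19 FPKM in BBR mice and at 1.94, 3.23 and 3.42 FPKM in SASP mice. Their log2 differences of 0.76 and 0.57 had adjusted p-values of 0.257 and 0.367 in limma. Elavl4 (15572), an RNA-binding protein of neurons, had a log2 difference of 0.42 (adjusted p = 0.530), as BBR mouse 1 was at 0.55 FPKM and SASP mouse 1 at 0.50 FPKM, whereas the other mice were at 1.47 to 3.98 FPKM. The neurofilament gene Nefl (18039) was at 0.89, 2.53 and 3.44 FPKM under BBR and at 0.46, 1.56 and 1.47 FPKM under SASP (log2 difference 0.56, adjusted p = 0.315). Its partner Nefm (18040) lay below the filter, at 0.64, 1.51 and 1.76 FPKM under BBR and at 0.37 to 0.71 FPKM under SASP. Elavl3 (15571), a relative of Elavl4, was at 0.21 to 0.73 FPKM in all mice.

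Genes of synaptic vesicles and secretory granules showed the same pattern. Snap25 (20614), which drives vesicle fusion, was at 3.89, 9.52 and 14.95 FPKM in BBR mice and at 2.31, 5.87 and 5.17 FPKM in SASP mice, a log2 difference of 0.85 with SE 0.46 and an adjusted p of 0.247 in limma. Scg2 (20254), which encodes a granin of dense-core granules, was at 5.15, 10.96 and 17.97 FPKM in BBR mice and at 3.19, 7.76 and 6.54 FPKM in SASP mice. In both genes the groups overlapped through BBR mouse 1. Scg2, the granule gene Scg3 (20255) and Syt1 (20979), the calcium sensor of vesicle release, had log2 differences of 0.78, 0.63 and 0.62, with adjusted p-values of 0.265, 0.274 and 0.370. Snap25 and the granins are also made by enteroendocrine cells of the epithelium. The 12 enteroendocrine markers had summed levels of 457, 436 and 750 FPKM in BBR mice and 444, 538 and 492 FPKM in SASP mice, so their groups overlapped. Of these markers, 10 were tested, 5 with a higher and 5 with a lower log2 mean in BBR mice and a median log2 fold change of 0.03. Ddc (1.31, limma adjusted p = 0.0378) and Chgb (0.58, limma adjusted p = 0.0446) were called higher, 2 of 10 against 3.82% of all genes. Their part in the levels of the neuronal genes was not tested.

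Among neurotrophic receptors and transcription factors, Hand2 had the largest log2 fold change with all 6 mice. It was 0.60 without BBR mouse 3, 1.34 without BBR mouse 1, 0.52 without SASP mouse 1 and -0.062 with array weights. Hand2 (15111) was at 3.53, 8.13 and 11.52 FPKM in BBR mice and at 1.43, 4.46 and 4.71 FPKM in SASP mice. SASP mouse 1 was lowest and BBR mice 2 and 3 were highest, and the log2 fold change was 0.92 (SE 0.46, 95% interval -0.16 to 2.01, limma adjusted p = 0.210). Ret (19713), the GDNF receptor kinase, was at 0.88, 2.90 and 3.45 FPKM in BBR mice and at 0.52, 2.49 and 1.32 FPKM in SASP mice, a log2 difference of 0.47 (SE 0.41, adjusted p = 0.452). Gfra1 (14585), the co-receptor that binds GDNF, was at 0.94, 2.18 and 2.54 FPKM under BBR and at 0.50, 1.26 and 1.21 FPKM under SASP, a log2 difference of 0.51 (SE 0.28, adjusted p = 0.240). The co-receptors for neurturin and artemin, Gfra2 (14586) and Gfra3 (14587), lay below the filter at 0.46 to 1.94 and 0.48 to 1.35 FPKM. Gfra3 did not share the order of the mice, since BBR mouse 3 was its lowest mouse.

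Of the genes of transmitter synthesis and loading, Nos1 and Dbh passed the filter, whereas Chat, Slc18a3 and Th lay below it. Nos1 (18125), the neuronal nitric oxide synthase, was at 0.78, 3.62 and 5.18 FPKM in BBR mice and at 0.54, 2.57 and 1.71 FPKM in SASP mice. The range within each group exceeded the difference between them, and the log2 fold change was 0.59 (SE 0.50, limma adjusted p = 0.442). Dbh (13166), which makes noradrenaline, was at 0.90, 2.45 and 4.57 FPKM under BBR and at 0.38, 2.0 and 1.40 FPKM under SASP (log2 difference 0.63, adjusted p = 0.352). Th (21823), the enzyme that starts catecholamine synthesis, was at 0 to 0.06 FPKM in all mice, a level of at most about 2 reads. Chat (12647), which makes acetylcholine, was at 0.31, 0.52 and 0.62 FPKM in BBR mice and at 0.13, 0.25 and 0.19 FPKM in the SASP group. All BBR mice lay above all SASP mice, as was so for 13.1% of all 6188 genes that had a signal below the filter, but its levels rest on about 7 to 30 reads. Slc18a3 (20508), the vesicular acetylcholine transporter, lies within the Chat gene, so reads of the pair may be divided with error. It was at 0.43, 1.16 and 1.22 FPKM in BBR mice and at 0.19, 0.53 and 0.47 FPKM in SASP mice. Chat is also expressed in tuft cells, whose 8 markers had summed levels of 11.0 to 15.3 FPKM in BBR and 10.1 to 14.1 FPKM in SASP mice, with 0 of 5 tested past the threshold. The part of tuft cells in the Chat levels was not tested.

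With all 6 mice, the neuropeptide genes Vip and Gal had the largest log2 fold changes above 0. These rested partly on BBR mouse 3 and on SASP mouse 1. Without BBR mouse 3, Vip was at 0.67 and Gal at 0.79, below Ano1 at 1.35 and Kit at 0.91. With array weights Vip was at 0.05. Without SASP mouse 1, Vip was at 0.86 and Gal at 1.08. Without BBR mouse 1, Vip was at 2.06 and Gal at 1.68. Vip (22353), the peptide of inhibitory and secretomotor neurons, was at 9.42, 24.63 and 71.01 FPKM in BBR mice and at 4.01, 17.20 and 10.94 FPKM in the SASP group. Its mean was 3.27 times as high in BBR mice, but BBR mouse 3 lay far above the others, and the log2 fold change was 1.38 (SE 0.74, 95% interval -0.37 to 3.13, limma adjusted p = 0.240). Gal (14419), the precursor of galanin, was at 2.49, 4.42 and 10.94 FPKM in BBR mice and at 0.89, 3.26 and 0.96 FPKM in the SASP group. Its groups overlapped through SASP mouse 2, and the log2 difference was 1.28 (SE 0.50, 95% interval 0.10 to 2.46, unadjusted p = 0.0377 and adjusted p = 0.135 in limma). Penk (18619), the precursor of enkephalins, was at 6.69, 15.32 and 25.92 FPKM under BBR and at 3.97, 11.73 and 8.81 FPKM under SASP (log2 difference 0.81, adjusted p = 0.303). Calb2 (12308), the calcium buffer calretinin, was at 4.54, 12.41 and 17.77 FPKM under BBR and at 3.03, 6.62 and 6.32 FPKM under SASP (log2 difference 0.88, adjusted p = 0.236). Cartpt (27220) and Npy (109648), which encode the CART peptide and neuropeptide Y, were at 0.26 to 2.09 and 0 to 0.70 FPKM. In Npy all BBR mice lay above all SASP mice, as was so for 13.1% of the 6188 genes with a signal below the filter. At most about 7 reads stand behind any value of Npy.

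Tac1 was the tested gene with a lower log2 mean in BBR mice. Tac1 (21333), which encodes substance P and neurokinin A, was at 15.16, 14.82 and 149.95 FPKM in BBR mice and at 47.87, 123.27 and 60.53 FPKM in SASP mice. BBR mice 1 and 2 were the lowest of all mice and BBR mouse 3 the highest. The log2 fold change was -1.09 (SE 0.88, 95% interval -3.16 to 0.98, limma adjusted p = 0.412), and without BBR mouse 3 it was -2.17 (limma adjusted p = 0.00974, range over all alternatives 0.00137 to 0.746). Tac1 is made by excitatory motor neurons, sensory fibres and enteroendocrine cells. Of the 12 enteroendocrine markers, 3 had the 6 mice in the same order, Gcg, Pyy and Insl5, which encode hormones of enteroendocrine L cells, and the other 9 did not. This likeness was looked for after the values were seen. Gcg was at 24.56, 17.88 and 126.33 FPKM in BBR mice and at 45.95, 67.17 and 46.29 FPKM in SASP mice. Of the 12072 genes tested, 45 (0.373%) other than Tac1 had the mice in this order.

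**Figure D2:**
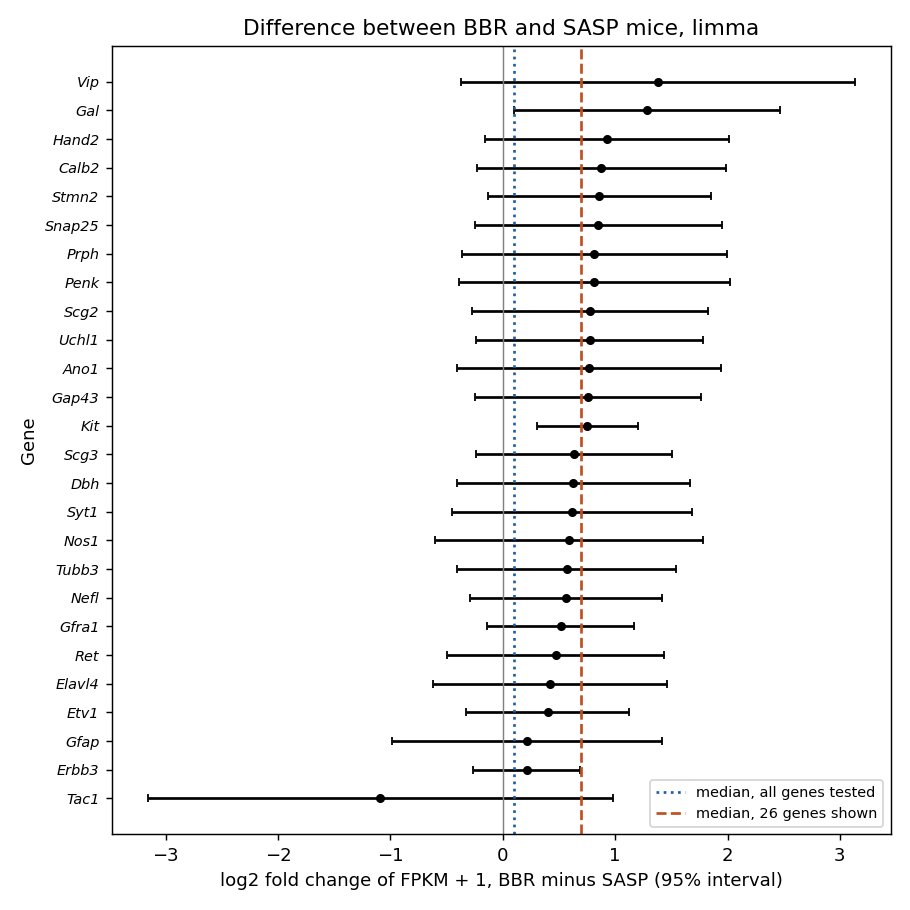
Log2 fold change of FPKM + 1 (BBR minus SASP) of the 26 tested genes with its 95% interval from limma. The intervals of all genes but Kit and Gal include 0, and the dashed line at 0.69 and the dotted line at 0.10 mark the medians of the 26 genes and of all genes tested.

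Of the genes of interstitial cells of Cajal, Kit and Ano1 had other mouse orders than most neuronal genes, while Etv1 resembled them. Kit (16590), the receptor for stem cell factor that marks these cells, was at 8.42, 12.26 and 7.08 FPKM in BBR mice and at 4.88, 5.11 and 4.88 FPKM in SASP mice. All BBR mice, mouse 1 included, lay above all SASP mice, as was the case for 21.3% of all genes tested. Its log2 fold change was 0.75 (SE 0.19, 95% interval 0.30 to 1.2), and its adjusted p-value in limma was 0.0562 (unadjusted p = 0.00565), just short of the threshold. It passed without BBR mouse 3 (0.91, adjusted p = 0.0103), with quantile normalization (0.67, adjusted p = 0.0334), with median-ratio scaling (0.67, adjusted p = 0.0313) and with array weights (0.72, adjusted p = 0.000703). In limma the adjusted p-value of Kit ranged from 0.000703 to 0.222 over all alternatives, and the shares of all genes called higher were 6.15% (quantile) and 5.23% (median-ratio) under these scalings. Mast cells also carry KIT. The defining mast cell gene Cpa3 was at 0.05 to 0.25 FPKM in all mice, and the 9 mast cell markers in the table had summed levels of 3.48 to 3.97 FPKM in BBR and 4.32 to 6.82 FPKM in SASP mice. Of the 9 markers, 3 were tested, all 3 had a lower mean in BBR mice and 0 passed the threshold, and the receptor subunit genes Fcer1a and Ms4a2 were at 0 in most mice. The part of mast cells in the Kit levels was not tested.

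Ano1 (101772), the chloride channel of pacemaker cells, was at 76.84, 89.20 and 23.90 FPKM in BBR mice and at 43.29, 33.90 and 22.06 FPKM in SASP mice. Here BBR mice 1 and 2 were highest and BBR mouse 3 fell among the SASP mice. The log2 fold change was 0.76 (SE 0.50, limma adjusted p = 0.318), and without BBR mouse 3 it was 1.35 (limma adjusted p = 0.0140, range over all alternatives 0.000817 to 0.643). Its level was several times that of Kit in all mice, and secretory epithelia are also known to express it. Etv1 (14009), a transcription factor of these cells, was at 1.32, 3.49 and 4.05 FPKM under BBR and at 1.34, 2.2 and 2.07 FPKM under SASP. Its log2 difference was 0.40 (adjusted p = 0.396). The mouse order resembled that of most neuronal genes, except that BBR mouse 1 lay just below SASP mouse 1, as it did in Tubb3. Of 12 other genes of interstitial cells, 8 were tested, all with a higher mean in BBR mice, against 60.8% of all genes tested. Their median log2 fold change was 0.38, and 0 passed the threshold. The smallest p-value was that of Cacna1h, a T-type calcium channel gene (0.91, limma adjusted p = 0.0527).

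Of the 4 glial genes, Sox10 and S100b were scarce and Erbb3 was abundant. Sox10 (20665), the defining transcription factor of enteric glia, was at 0.66, 1.42 and 1.17 FPKM in BBR mice and at 0.38, 0.62 and 0.76 FPKM in SASP mice. S100b (20203), a calcium-binding protein of glia, was at 0.69, 1.37 and 1.06 FPKM under BBR and at 0.19, 0.97 and 0.53 FPKM under SASP. Both genes lay below the filter, and BBR mouse 2, not BBR mouse 3, was highest. Gfap (14580), the glial filament, was at 0.77, 1.72 and 5.84 FPKM in BBR mice and at 0.83, 2.85 and 1.98 FPKM in SASP mice. BBR mouse 1 was the lowest of all mice and BBR mouse 3 the highest, and the log2 fold change was 0.22 (SE 0.51, 95% interval -0.99 to 1.42, limma adjusted p = 0.790), a sign that turned without BBR mouse 3 (-0.33). Erbb3 (13867), the neuregulin receptor of glia, was at 121.38, 127.44 and 76.30 FPKM in BBR mice and at 99.33, 84.29 and 90.52 FPKM in SASP mice. These levels were far above those of Sox10, and epithelial cells of the colon are also known to express Erbb3. Its log2 difference was 0.21 (adjusted p = 0.492), and 0.44 without BBR mouse 3 (limma adjusted p = 0.0175, range over all alternatives 0.00245 to 0.848). Of 20 other glial genes, 10 were tested, with a median of 0.40. Of these 10, 9 were higher on average in BBR mice, against 60.8% of all genes tested. Past the threshold was 1 of 10, as lower, where 5.04% of all genes were called lower. That gene, Cnp, encodes a phosphodiesterase of myelinating glia that is also present in many other cells, and it fell from 33.16, 27.06 and 30.77 FPKM in SASP mice to 15.57, 13.90 and 15.27 FPKM in BBR mice (-0.97, limma adjusted p = 0.00835).

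The wider neuronal list, read in the same 6 mice, showed the same direction. Of 32 other genes of enteric neurons, 18 were tested, and all 18 had a higher mean in BBR mice, against 60.8% of all genes tested. Their median log2 fold change was 0.53. The direction of this list with array weights was not examined. Of the 18, 1 passed the threshold, where 3.82% of all genes were called higher. This was Ache, which encodes acetylcholinesterase. It was at 5.05, 6.73 and 7.32 FPKM in BBR mice and at 3.01, 4.12 and 3.23 FPKM in SASP mice, a change of 0.72 on the log2 scale (SE 0.17, adjusted p = 0.0483 in limma). The synaptic vesicle gene Syn2 differed by 0.71 and did not pass the threshold (adjusted p = 0.0551). Of 15 ligands and co-receptors for enteric neurons, glia and Cajal cells, 6 were tested with a median of 0.28 and 0 past the threshold. The KIT ligand Kitl was at 22.77, 21.36 and 14.87 FPKM in BBR mice and at 17.44, 19.17 and 18.75 FPKM in SASP mice, so the groups overlapped. Gdnf lay below the filter, at 0.56, 0.65 and 0.56 FPKM in BBR mice and at 0.15, 0.34 and 0.18 FPKM in SASP mice, without overlap between the groups.

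Smooth muscle genes shared much of this order of mice. All 16 were tested, and all 16 had a higher mean in BBR mice, against 60.8% of all genes tested. Their median log2 fold change was 1.11, and 0 passed the threshold. The summed level of 16 smooth muscle genes was 3944, 4266 and 9008 FPKM in BBR mice and 1183, 3260 and 2464 FPKM in SASP mice. The summed level of the 9 pan-neuronal genes was 22.9, 58.5 and 79.5 FPKM in BBR mice and 14.7, 34.8 and 33.0 FPKM in SASP mice. SASP mouse 1 was lowest and BBR mice 2 and 3 were highest in both sums. BBR mouse 1 differed, as its muscle sum lay above all SASP mice and its neuronal sum below those of SASP mice 2 and 3. Per 1000 FPKM of the muscle sum, the pan-neuronal sum was 5.81, 13.7 and 8.83 FPKM in BBR mice and 12.4, 10.7 and 13.4 FPKM in SASP mice, and the groups overlapped. With the mean of the smooth muscle genes as a covariate, the median log2 fold change of the 26 genes was -0.35, with 22 of 26 below 0 and 0 past the threshold. The covariate, on the log2(FPKM + 1) scale, was 6.54, 6.88 and 7.66 in BBR mice and 5.11, 6.41 and 6.13 in SASP mice. It did not overlap between the groups, so that fit cannot cleanly separate drug from muscle level. It also has fewer degrees of freedom and called 25 of all 12072 genes (0.207%). How much of the neuronal levels goes with the amount of muscle was not tested further. The 8 fibroblast markers summed to 251 to 354 FPKM in BBR mice and 112 to 208 FPKM in SASP mice, with 3 of 8 called higher (Thy1, Lum and Col1a1), against 3.82% of all genes, and overlapping groups in Dcn and Col6a1. The 6 endothelial markers summed to 26.6 to 43.4 against 14.1 to 20.7 FPKM, with Emcn called higher (1 of 6, against 3.82% of all genes). The 7 leukocyte markers summed to 17.4 to 25.1 against 26.9 to 48.0 FPKM, with 0 of 4 tested past the threshold. The part of these cells in the neuronal levels was not tested.

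**Figure D3:**
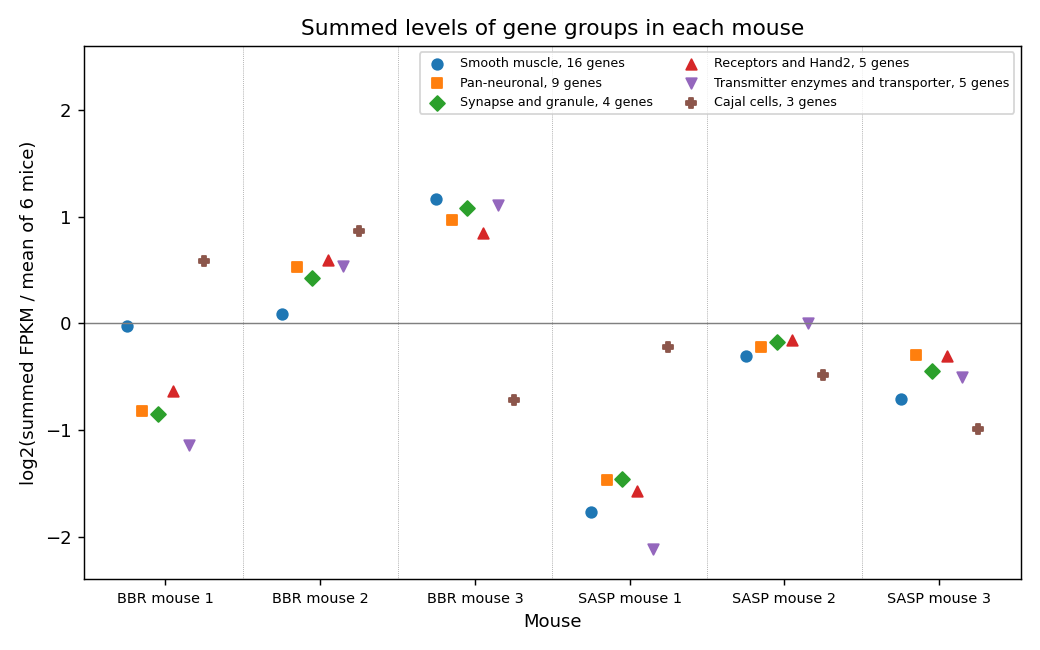
Summed FPKM of each gene group in each mouse, as log2 of the ratio to the mean of the 6 mice. The pan-neuronal, synapse and receptor groups and smooth muscle were lowest in SASP mouse 1 and highest in BBR mouse 3, whereas the 3 Cajal cell genes, dominated by Ano1, were highest in BBR mouse 2.

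Relative to the pan-neuronal sum, several genes were nearly constant. That sum differed 5.42-fold between the highest and lowest mouse. Calb2 was at 19.8%, 21.2% and 22.3% of it in BBR mice and at 20.6%, 19.0% and 19.1% in SASP mice, and its highest ratio was 1.18 times the lowest. For Snap25 the ratio was 17.0%, 16.3% and 18.8% in BBR mice and 15.7%, 16.9% and 15.7% in SASP mice. In total 6 of the 19 tested genes outside the pan-neuronal group, Calb2, Snap25, Scg2, Gfra1, Penk and Scg3, stayed within 1.5-fold over all mice, a limit chosen after the values were seen. Penk was at 26.2% to 32.6% of the pan-neuronal sum in BBR mice and at 26.7% to 33.7% in SASP mice.

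The ratios of other genes to the neuronal sum varied more. Vip was at 41.1%, 42.1% and 89.3% of the pan-neuronal sum in BBR mice and at 27.3%, 49.4% and 33.1% in SASP mice, so that BBR mouse 3 stood above all others. Nos1 was lowest in the mice with the lowest neuronal sums, at 3.40% in BBR mouse 1 and 3.68% in SASP mouse 1, against 5.18% to 7.38% in the other mice. Tac1 was at 66.1%, 25.4% and 188% in BBR mice and at 326%, 354% and 183% in SASP mice, a 14.0-fold range. The ratios of Kit and Ano1 ranged 4.13-fold and 11.2-fold, which includes the 5.42-fold range of the sum they were divided by.

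**Figure D4:**
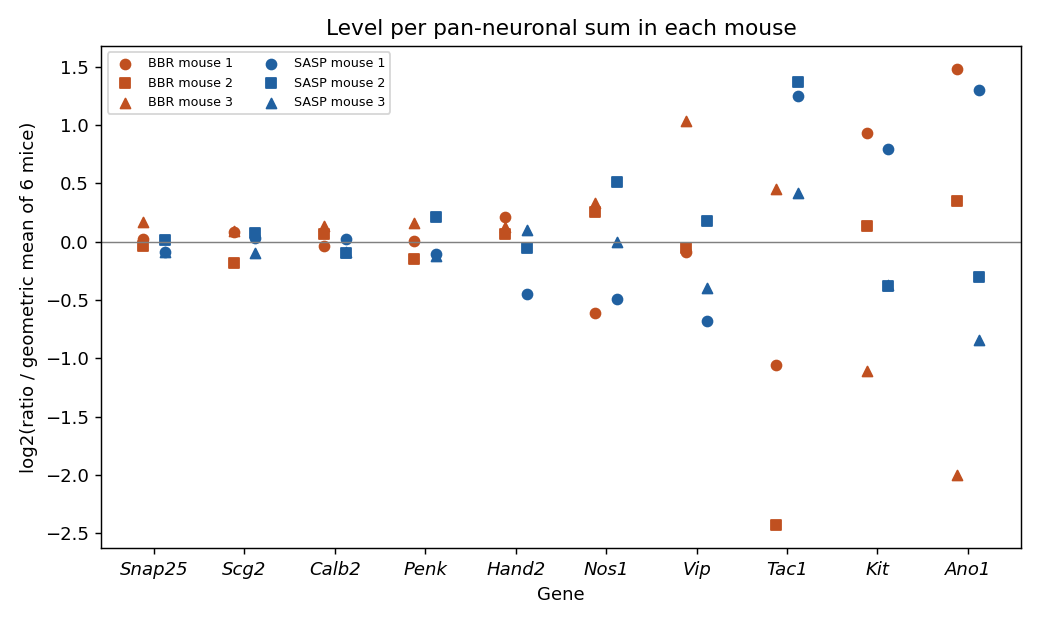
FPKM of 10 genes divided by the pan-neuronal sum, as log2 of the ratio to the geometric mean of the 6 mice, with BBR mice in orange and SASP mice in blue. Snap25, Scg2, Calb2 and Penk lie close to 0 in all mice and Tac1 scatters widely, while the scatter of Kit and Ano1 includes that of the sum.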

How the data were processed

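RNA of colorectal tissue was measured by sequencing in 3 BBR and 3 SASP mice. The authors deposited FPKM values per gene and mouse, calculated with RSEM 1.2.12 after alignment with Bowtie2 2.2.5, and the processing notes of the submitters name build mm9. The methods of the study describe ribosomal RNA depletion and nanoball sequencing, whereas the labels name an Illumina kit, and the annotation is not given in the sources used here. Groups followed the treatment label, and mice were numbered in accession order, which pairs no mice. RSEM divides reads shared between genes, so values of overlapping genes are uncertain.

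FPKM are not counts, and no count model was used. Genes that reached 1 FPKM in 3 or more mice were tested on log2(FPKM + 1), which understates changes of low genes, with limma 3.58.1 (R 4.3.3, variance trend, two-sided, Benjamini-Hochberg over all genes tested, threshold 0.05). The limma step was tested on simulated data. Alternatives were lower or no filters, a pseudocount of 0.1, quantile and median-ratio scaling, no variance trend, array weights, a smooth muscle covariate and leaving out each mouse, with the genes tested kept. Depth and approximate reads were estimated with transcript lengths of GENCODE M21, from genes under 1500 bases that had a signal in 1 mouse. The rule named all 37 genes and allowed up to 3 genes with the smallest p-values from each other list, besides which Gcg, Pyy, Insl5, Dcn, Col6a1, Kitl, Gdnf, Epcam, Cpa3, Fcer1a and Ms4a2 were named after their values were seen. The genes and lists were chosen with earlier results of these data known.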

Additional observations from a re-analysis of the deposited data

How the results depend on the processing

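The number of the 37 genes past the threshold was 0 with no filter, with the lower filter, with a pseudocount of 0.1, with no variance trend and with the smooth muscle covariate. It was 1 (Kit) with quantile normalization and 1 (Kit) with median-ratio scaling, 6 with array weights and 2 at an unadjusted p under 0.05, and it ranged from 0 to 4 when single mice were left out, with 4 (Kit, Ano1, Erbb3 and Tac1) without BBR mouse 3. The median log2 fold change of the 26 genes ranged from 0.39 to 1.08 when single mice were left out. It was -0.15 with array weights and -0.35 with the smooth muscle covariate. The array weights were 5.32 in BBR mouse 1, 4.85 in SASP mouse 3 and 0.129 to 0.746 in the other mice. Without BBR mouse 3 the median was 0.39, with 24 of 26 genes above 0. Without SASP mouse 1 it was 0.42, also with 24 of 26 genes above 0. The smooth muscle covariate was higher in all BBR mice than in all SASP mice. The cause of the turned sign was not tested. With array weights the sign turned for Etv1 -0.25, Elavl4 -0.48, Uchl1 -0.13, Tubb3 -0.37, Prph -0.31, Nefl -0.20, Gap43 -0.16, Snap25 -0.11, Syt1 -0.27, Scg2 -0.10, Scg3 -0.064, Ret -0.18, Gfra1 -0.043, Hand2 -0.062, Gfap -0.62, Nos1 -0.39, Dbh -0.17, Penk -0.14 and Calb2 -0.15, as log2 fold changes, while Kit, Ano1, Erbb3, Gal and Tac1 passed the threshold with their sign kept and Gfap passed as lower. With the covariate it turned for Etv1 -0.25, Elavl4 -0.70, Uchl1 -0.35, Tubb3 -0.36, Prph -0.45, Nefl -0.35, Stmn2 -0.18, Gap43 -0.34, Snap25 -0.37, Syt1 -0.46, Scg2 -0.41, Scg3 -0.24, Ret -0.55, Gfra1 -0.13, Hand2 -0.30, Gfap -1.14, Nos1 -0.68, Dbh -0.55, Vip -0.68, Penk -0.58 and Calb2 -0.29. Gfap was also below 0 without BBR mouse 3 (-0.33) and without SASP mouse 1 (-0.08), with a range of -0.33 to 0.64 when single mice were left out. The 1069 genes called over all genes became 608 with no filter, 1737 with quantile normalization, 1713 with median-ratio scaling, 7126 with array weights, 25 with the covariate and 3837 at an unadjusted p under 0.05, and 96 (without SASP mouse 3) to 4051 (without BBR mouse 3) when single mice were left out. No paired analysis was possible because the labels give the groups no shared replicate numbers. Genes below about 1 FPKM rest on few reads, and read totals were not analysed here.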
